A study of Mus musculus with 5 samples.

Results

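Stitched distal acetylated domains are stretches of chromatin where several peaks of H3K27ac (acetylated lysine 27 of histone H3) lie close together away from H3K4me3 (trimethylated lysine 4 of histone H3). They were built from the peak lists of PDGFB-induced mouse gliomas. Members were chosen by the control tumours alone. Control H3K27ac peaks on chromosomes 1 to 19 that overlapped no control H3K4me3 peak were taken as distal, distal peaks 12.5 kb or less apart were joined, and groups of 3 or more peaks were kept. Of 20581 groups, single peaks included, 1408 were such domains. They held 4924 of the 27647 distal peaks, while 7100 peaks lay in 3550 groups of 2 and 15623 lay alone.

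The gliomas were examined 25 days after virus injection, on a background labelled mixed C57Bl/6;129Sv;CD-1. Olig2cKO tumours carry floxed Olig2 alleles (Olig2f/f) and control tumours do not. Both genotypes share their other floxed alleles, P53f/f among them, so the Olig2 alleles are what sets the labelled genotypes apart. Chromatin immunoprecipitation followed by sequencing (ChIP-seq) gave 1 library for each of 5 groups: H3K27ac in Olig2cKO and in control tumours, H3K4me3 in Olig2cKO and in control tumours, and Olig2 in control tumours. The source of the recombinase that acts on the floxed alleles, and whether tumours were pooled, are not given in the sources used here. Olig2 was mapped in control tumours alone, so its loss in the Olig2cKO libraries was not checked. The lists hold no expression values, so the tumour label was not checked against marker genes.

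H3K27ac is laid down by the acetyltransferases p300 and CBP at active enhancers and promoters, and H3K4me3 marks mainly promoters. Enhancers that act on cell identity genes often lie in clusters, and joining neighbouring distal H3K27ac peaks is the usual first step in listing such clusters. Olig2 is a basic helix-loop-helix transcription factor that specifies the oligodendrocyte lineage, is present in oligodendrocyte precursors and in many gliomas, and binds E-box motifs. The domains described here were not ranked by read signal, which the usual definition of super-enhancers needs, and are not called by that name.

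For chromosomes 1 to 19, Olig2cKO tumours had 67928 listed H3K27ac peaks, spanning 120.0 Mb, and control tumours 55323, spanning 98.9 Mb. The H3K4me3 lists held 47634 peaks in Olig2cKO and 43472 in control tumours, and the Olig2 list held 38527. Read depth is unknown, and a longer list has more chances to overlap a given peak. With 1 library a group, no difference between genotypes has a replicate check and none was tested. Intervals are exact binomial ones at 95%, or order-statistic ones for medians. They treat peaks or domains as independent draws within these libraries and hold no error between tumours or libraries. Neighbouring peaks are not independent. In bulk tumour tissue, fewer cells that carry a mark and less of the mark in each cell cannot be told apart.

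The domains were short clusters of modest peaks. The median length was 21.2 kb, the shortest was 3.29 kb and the longest 89.7 kb, and together they spanned 32.1 Mb. Of the 1408 domains, 949 (67.4%) held 3 peaks, 299 held 4, 105 held 5 and 55 held 6 or more, up to 10. Control H3K27ac peaks covered a median of 26.99% of the domain (lowest 9.42%, highest 94.0%), and the rest was the gaps between peaks. The median gap between neighbouring peaks was 6765 bp. The median width was 1496 bp for domain peaks and 1258 bp for single distal peaks. Their median scores were 114.8 and 121.2 in the same order, so clustered peaks were wider but not higher scored. The score is that of the authors' peak caller, starts at about 50 and ranks peaks only within a list. Domains lay far apart, with a median of 632.5 kb to the next one, and 118 of 1389 neighbouring pairs were less than 50 kb apart.

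Membership depended on the rule. The widest gap was 10 kb or more in 594 domains, which are those nearest the limit. A further 1175 gaps between distal peaks lay just outside it, between 12.5 and 15 kb. A joining distance of 15 kb would have given 1727 domains. Groups of 2 peaks, just below the required number, had a median length of 9.58 kb, and Olig2cKO H3K27ac covered a median of 28.3% of their length where control H3K27ac covered 34.3%.

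The first readout the rule did not use was Olig2. An Olig2 peak lay in 981 of the 1408 domains (69.7%, 95% interval 67.2 to 72.1), against 35.1% of all groups of joined distal peaks, most of which are single peaks and offer less room. The number of Olig2 peaks was 0 in 427 domains, 1 in 496, 2 in 313, 3 in 131, 4 in 32, 5 in 8 and 6 in 1 domain. The share of domains with Olig2 went up with size. It was 64.1% (60.9 to 67.1) for 3 peaks, 79.6% (74.6 to 84.0) for 4, 83.8% (75.3 to 90.3) for 5 and 85.5% (73.3 to 93.5) for 6 or more. Over 4 length classes of 352 domains each it was 54.3%, 67.9%, 71.6% and 84.9% from the shortest to the longest. With only the upper 50% of Olig2 peaks by score, 41.4% of all domains had one.

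Olig2 peaks per length of domain did not follow that order. Pooled over the 4 length classes, the density was 0.593, 0.528, 0.514 and 0.511 Olig2 peaks per 10 kb from the shortest to the longest domains. Spearman's rho across the 1408 domains was 0.344 between length and Olig2 peak number, and -0.00807 between length and Olig2 peaks per 10 kb. It was 0.276 between H3K27ac peak number and Olig2 peak number. These correlations describe domains that share the same 2 libraries, and length and peak number are themselves tied (rho 0.678). The highest H3K27ac score in a domain went with Olig2 peak number more closely than either (rho 0.422).

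**Figure D1:**
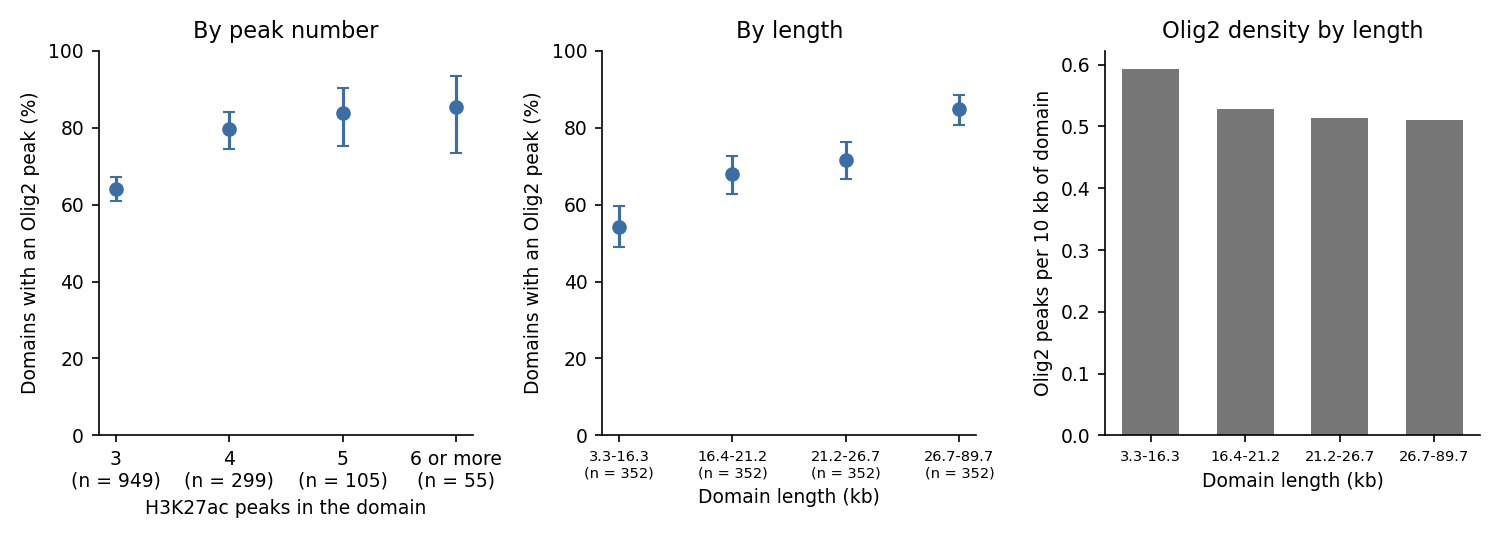
Share of control domains with at least 1 Olig2 peak by the number of H3K27ac peaks (left) and by length class (middle), with exact 95% intervals, and Olig2 peaks per 10 kb of domain by length class (right). The share is 64.1% for domains of 3 peaks and 85.5% for those of 6 or more, while the density stays between 0.511 and 0.593.

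Within domains, most Olig2 peaks lay on the acetylated stretches, a direction that building domains from H3K27ac peaks favours. Of 1689 Olig2 peaks in domains, 1447 (85.7%, 83.9 to 87.3) overlapped a distal control H3K27ac peak, and 87 lay only on a promoter-type peak (an H3K27ac peak with H3K4me3) between the distal ones. The other 155 (9.18%) lay in gaps. Of the 36838 Olig2 peaks outside domains, 32.1% lay on no control H3K27ac peak. Domains held 4.38% of the 38527 Olig2 peaks. The control acetylated stretches carried 1.72 Olig2 peaks per 10 kb and the gaps 0.067. Flanks of 12.5 kb on each side of the domains, which the rule keeps free of distal control peaks, carried 0.284 per 10 kb, against 0.527 over whole domains. All Olig2 peaks count in the flanks, while the gap value leaves out those that touch control H3K27ac. Control H3K27ac still covered 6.09% of the flanks, so gaps and flanks are not like for like. Olig2 peaks in domains were not higher scored than those elsewhere, with median scores of 86.4 and 94.0.

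Single peaks of a domain carried Olig2 about as often as distal peaks elsewhere. Olig2 overlapped 1418 of 4924 domain peaks (28.8%, 27.5 to 30.1) and 6448 of 22723 distal peaks outside domains (28.4%, 27.8 to 29.0), near the 28.5% of all distal peaks. Outside peaks weighted to the score and width classes of domain peaks gave 27.8%. Inner peaks of a domain had Olig2 in 29.1% of cases and its first and last peaks in 28.6%. Of 3516 pairs of neighbouring domain peaks, 333 had Olig2 on both, 1366 on 1 and 1817 on neither. Counting each pair from both sides, the neighbour had Olig2 in 32.8% of cases next to a peak with Olig2 and in 27.3% next to a peak without it. Among the 949 domains of 3 peaks, 390 had Olig2 on none of the 3, 357 on 1, 180 on 2 and 22 on all 3.

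The main comparison set the domains against H3K27ac of Olig2cKO tumours. Olig2cKO H3K27ac covered a median of 24.2% of the domain (23.5 to 25.0), and control H3K27ac covered 26.99% (26.3 to 27.6). The median difference per domain, Olig2cKO minus control, was -2.58 points (-3.25 to -2.03), and -5.32 points with the Olig2cKO list cut by score to the length of the control list. Olig2cKO cover was the larger in 552 of 1408 domains (39.2%, 36.6 to 41.8). It was less than 50% of the control cover in 166 domains (11.8%) and more than 1.5 times it in 87 (6.18%). Control peaks chose the domains, so the libraries do not enter this comparison on equal terms, and it is given as a description.

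The reverse choice gave a larger difference. Domains built by the same rule from the Olig2cKO lists numbered 2126, and Olig2cKO H3K27ac covered a median of 28.5% of them where control H3K27ac covered 15.6%. When the Olig2cKO list was cut by score to the length of the control list, its peaks covered a median of 21.4% of the control domains, and control peaks covered 18.6% of the 1005 domains built from the cut list. There the median difference, control minus Olig2cKO, was -10.9 points, and it was -12.6 for all 2126. Cover of control domains by all Olig2cKO peaks therefore depends on list length. With only the upper 50% of Olig2cKO peaks by score it was 12.2%.

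**Figure D2:**
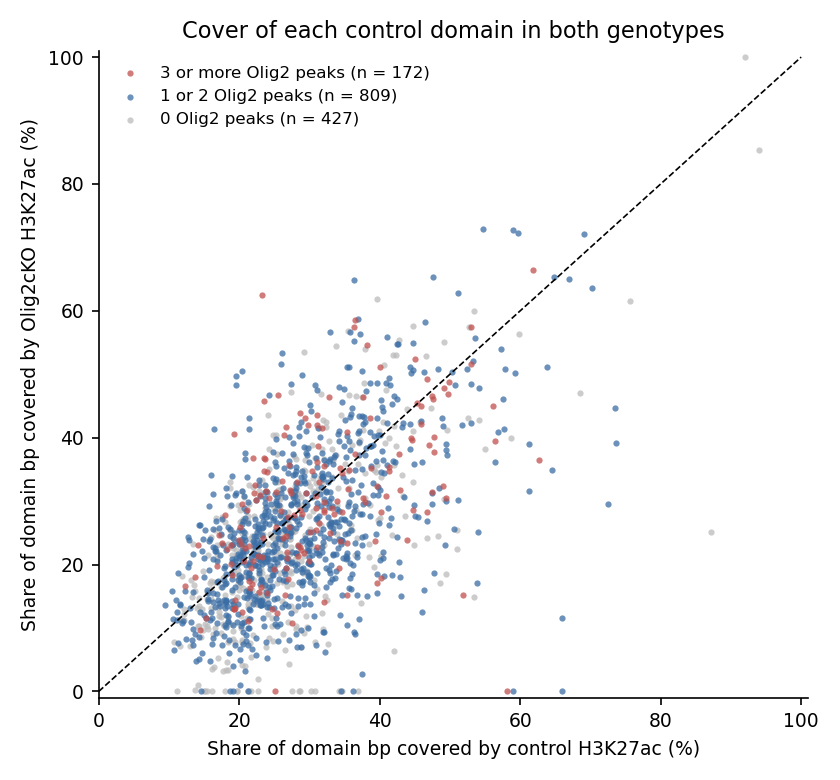
Share of each domain's bp covered by Olig2cKO H3K27ac (vertical) and by control H3K27ac (horizontal), 1 point a domain, coloured by the number of Olig2 peaks; the dashed line marks equal cover. Of 1408 domains, 552 lie above the line, and domains with 0, 1 or 2, and 3 or more Olig2 peaks lie on both sides of it.

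Most of the control acetylation was also listed in Olig2cKO tumours. Olig2cKO peaks covered a median of 73.2% (71.6 to 75.1) of the control acetylated bp of a domain and 5.34% of its gaps. Pooled over all domains these shares were 70.8% and 7.67%. Cover of the flanks was 9.60%, where control H3K27ac covered 6.09%, while gaps hold no control H3K27ac by definition. Olig2cKO cover of the domain exceeded that of its own flanks in 1238 of 1408 domains (87.9%), a direction that choosing domains by control peaks favours. Of 4006 Olig2cKO peaks in domains, 239 (5.97%) overlapped no control H3K27ac peak, and these lay in 219 domains. Of all 67928 Olig2cKO peaks, 31.1% overlapped none, a list not chosen for control peaks as the domains were. Olig2 lay on 46 of the 239 (19.2%, 14.4 to 24.8), against 14.3% of all Olig2cKO peaks without control H3K27ac.

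No Olig2cKO H3K27ac peak was listed in 29 domains (2.06%, 1.38 to 2.94), against 22.5% of all groups of joined distal peaks, single ones included. Most groups are single peaks, which have fewer chances of an Olig2cKO peak, and groups of 2 gave 7.72%. Peak by peak the shares lay closer, with 24.8% of domain peaks and 27.3% of outside distal peaks lacking an Olig2cKO partner. Of the 29, 24 held only 3 peaks. Their median length was 17.2 kb, and their highest scores had a median of 132.2, where all domains had 241.9. They had Olig2 in 10 cases (34.5%, 17.9 to 54.3), against 69.7% of all domains and 64.1% of those of 3 peaks. An Olig2cKO H3K4me3 peak lay in 7 (24.1%, 10.3 to 43.5), against 47.0% of all domains. With the Olig2cKO list cut to control length the share without a peak was 4.33%, and with its upper 50% by score 20.95%. Conversely, 634 domains (45.0%, 42.4 to 47.7) overlapped a domain built from Olig2cKO peaks, and 631 of the 2126 Olig2cKO domains (29.7%) overlapped a control domain. That overlap was 37.5% for control domains of 3 peaks, 56.2% for 4, 61.9% for 5 and 81.8% (69.1 to 90.9) for 6 or more. Larger domains offer more room for it, with median lengths of 18.4 kb for 3 peaks and 49.4 kb for 6 or more, and length was not matched. The share of peaks lacking an Olig2cKO partner was 26.5%, 21.1%, 24.0% and 24.7% over the same classes.

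Cover by Olig2cKO H3K27ac varied little with size. Its median was 24.0% for domains of 3 peaks, 25.2% for 4, 23.2% for 5 and 24.0% for 6 or more. Over the 4 length classes, from shortest to longest, it was 26.0%, 23.9%, 23.5% and 23.9%. Control cover was 31.2%, 26.3%, 25.2% and 25.1% in the same classes, and the median difference, Olig2cKO minus control, was -5.76, -2.22, -1.95 and -1.54 points. The shortest domains thus had the densest control acetylation and the most negative difference. Control cover is a term of that difference, so high control cover favours a negative value. Over 4 classes of control cover, from lowest to highest, the difference was 0.41, -1.77, -3.84 and -6.35 points in domains with Olig2. In domains without Olig2 it was -1.86, -2.19, -2.97 and -6.09 points. Length was not compared at equal control cover. Spearman's rho with Olig2cKO cover was -0.0686 for length and 0.0343 for peak number, while control cover, taken from the peaks that chose the domains, gave 0.574.

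Median Olig2cKO cover was higher in domains with Olig2 than in those without, but the intervals of both medians overlapped. The medians were 25.0% (23.9 to 25.7) in 981 domains with Olig2 and 23.1% (21.5 to 24.3) in 427 without, a difference of 1.89 points. Setting opposite ends of both intervals against each other gives -0.33 to 4.26 points. Such a range is wider than an interval for the difference itself, which was not computed. That it includes 0 therefore does not decide whether the difference exceeds the error from the spread among domains. The ranges in brackets for other settings below are of the same kind. Control cover had medians of 27.6% in domains with Olig2 and 25.6% in those without. Weighted over classes of peak number the Olig2cKO difference was 1.63 points. Over classes of length, control cover and highest score it was 2.25, 1.09 and 1.92 points. These weighted differences are given without an interval. The median was higher with Olig2 on 12 of 19 chromosomes. At a joining distance of 5 kb, which left 189 domains, the difference turned to -1.13 points (-11.9 to 13.1). It was 3.04 points (1.64 to 4.87) at 20 kb, 3.10 (1.13 to 5.26) with the upper 50% of Olig2 peaks, 2.91 (-0.28 to 5.23) with the Olig2cKO list cut to control length and 4.43 (2.47 to 6.96) with its upper 50%.

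The number of Olig2 peaks went with cover in both genotypes. From 0 to 4 or more Olig2 peaks, the Olig2cKO medians were 23.1%, 23.2%, 26.3%, 28.7% and 30.5%. The control medians over the same classes were 25.6%, 27.1%, 27.7%, 28.8% and 31.1%. The share of domain peaks with no Olig2cKO partner was 29.7% in domains with 0 Olig2 peaks, 25.2% with 1, 21.9% with 2, 20.5% with 3 and 14.1% with 4 or more. Domains with more Olig2 peaks were also longer, at a median of 38.0 kb for 4 or more and 18.4 kb for 0. Spearman's correlation across domains was 0.172 between Olig2 peak number and Olig2cKO cover, and 0.122 between Olig2 peak number and control cover.

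**Figure D3:**
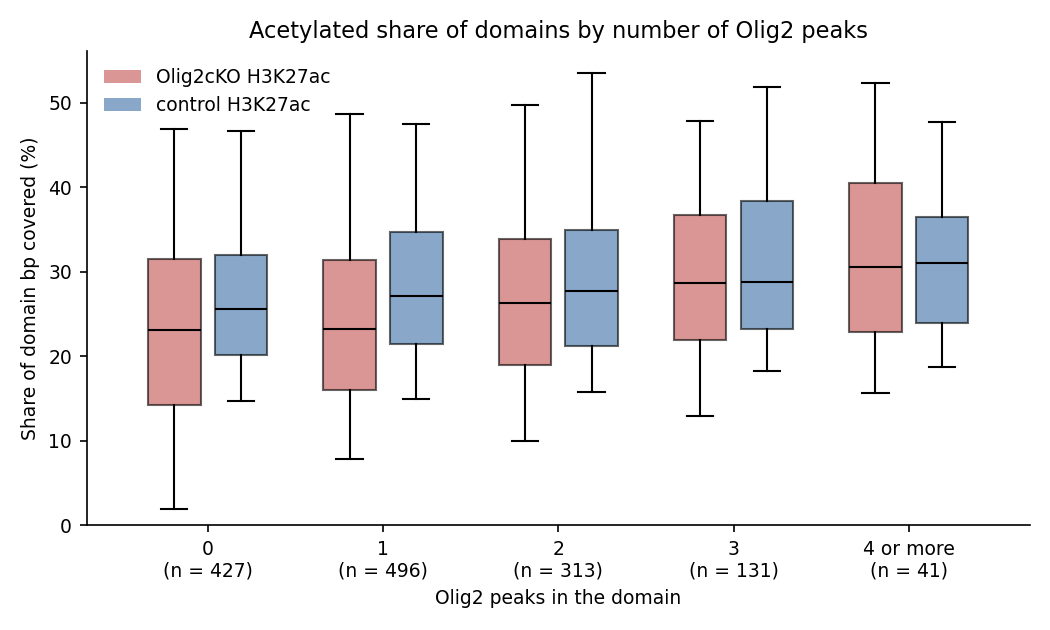
Share of domain bp covered by Olig2cKO H3K27ac (red) and control H3K27ac (blue) by number of Olig2 peaks; boxes give the median and the quartiles, whiskers the 5th and 95th percentiles of domains. Medians run between 23.1% and 30.5% in Olig2cKO and between 25.6% and 31.1% in control tumours, and the boxes overlap in every class.

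Most domains held some peaks that were shared between genotypes and some that were not. Of 4924 domain peaks, 1220 (24.8%, 23.6 to 26.0) had no Olig2cKO partner and are called control-only here, against 6193 of 22723 distal peaks outside domains (27.3%, 26.7 to 27.8), where all distal peaks gave 26.8%. Outside peaks weighted to the score and width classes of domain peaks gave 25.7%. Every distal peak was shared in 557 domains (39.6%), and none was in 35 (2.49%). Among domains of 3 peaks, 395 had 0 control-only peaks, 384 had 1, 140 had 2 and 30 had all 3. The control-only share of domain peaks was 61.7% against the upper 50% of Olig2cKO peaks by score, and 7.66% in the 83 domains built from the upper 50% of control peaks.

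Olig2 on a domain peak went with a lower control-only share, and the intervals with and without it do not overlap. The share was 203 of 1418 (14.3%, 12.5 to 16.2) for domain peaks with Olig2 and 1017 of 3506 (29.0%, 27.5 to 30.5) for those without. Distal peaks outside domains showed a similar split, with 17.1% (16.2 to 18.03) of 6448 with Olig2 and 31.3% (30.6 to 32.0) of 16275 without. Score and width moved with this: peaks without Olig2, weighted to the score and width classes of peaks with Olig2, gave 18.8%, and the share was lower with Olig2 in 18 of 25 classes. Over 4 score classes of distal peaks, from lowest to highest, the share was 35.3%, 25.7%, 16.8% and 4.56% for domain peaks with Olig2, and 43.5%, 31.8%, 18.1% and 9.86% for those without. Intervals overlapped in the 3 lower classes and not in the highest, where they were 3.12 to 6.41% with Olig2 and 7.43 to 12.8% without. Among peaks with Olig2 split into 3 equal classes by Olig2 score, 18.2%, 15.7% and 9.09% were control-only from the lowest to the highest, while the median H3K27ac score was 153.1, 201.0 and 270.4. The Olig2 peaks are those of control tumours, and these shares do not measure an effect of losing Olig2.

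Peaks without Olig2 had similar shares whether or not another peak of the domain carried it. Of peaks that lacked Olig2 in domains with Olig2 on another peak, 536 of 1877 (28.6%, 26.5 to 30.7) were control-only. Of peaks in domains with Olig2 on no peak, 481 of 1629 (29.5%, 27.3 to 31.8) were. The intervals overlap, which does not show that the shares are equal. By position in the domain, 23.6% (21.8 to 25.4) of inner peaks and 25.7% (24.1 to 27.3) of first and last peaks were control-only, again with overlapping intervals. Of the 3516 neighbouring pairs, 232 had both peaks control-only, 1253 had 1 and 2031 had neither. Counting each pair from both sides, the neighbour was control-only in 27.02% of cases next to a control-only peak and in 23.6% next to a shared peak, given without intervals because pairs repeat peaks. For neighbours less than 2500 bp apart these shares were 32.3% and 24.1%, and for neighbours 10 to 12.5 kb apart they were 21.8% and 24.1%.

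**Figure D4:**
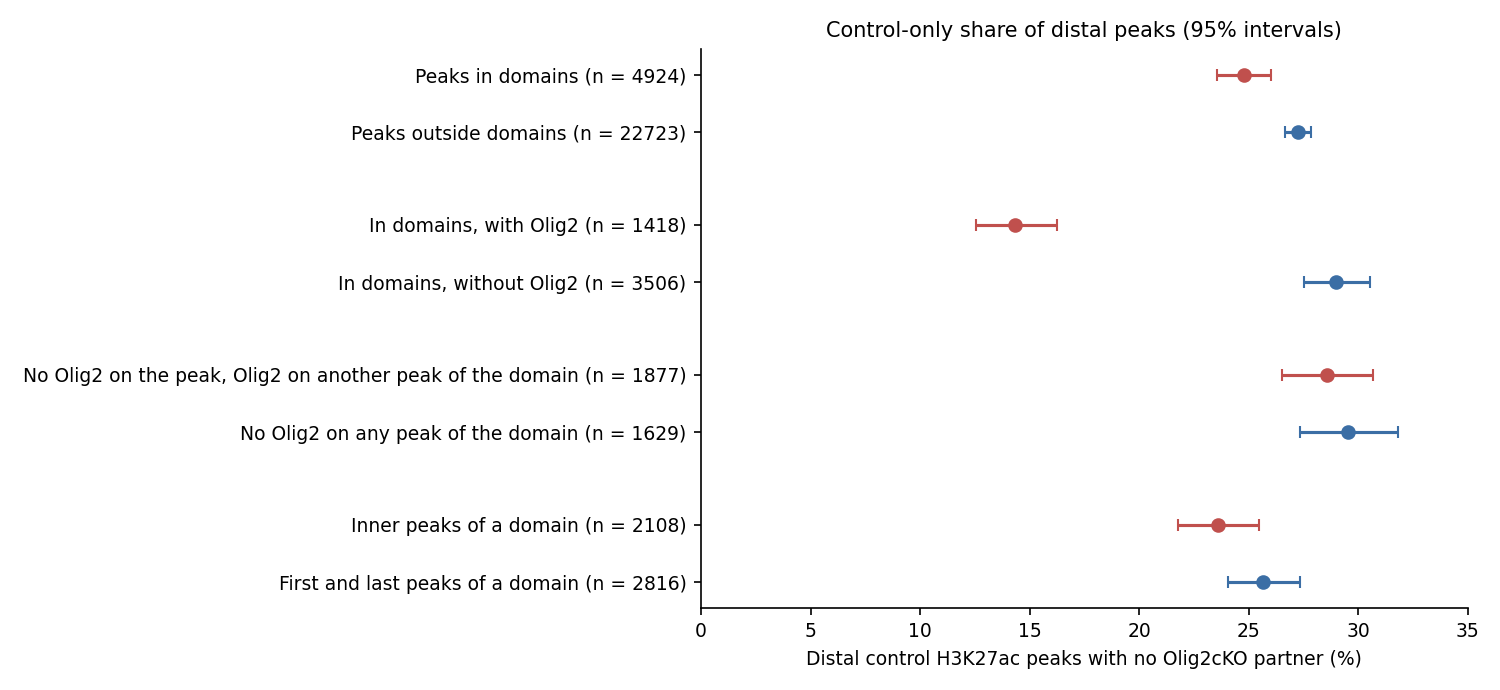
Share of distal control H3K27ac peaks with no overlapping Olig2cKO H3K27ac peak, in 4 pairs of peak classes, with exact 95% intervals. Olig2 on the peak itself goes with the widest difference (14.3% with, 29.0% without). Weighted to the score and width classes of peaks with Olig2, peaks without it gave 18.8%. Peaks without Olig2 had shares of 28.6% with Olig2 on another peak of the domain and 29.5% with Olig2 on none, with no weighting.

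Where an Olig2 site of a domain lay outside control acetylation, acetylation was sometimes listed in Olig2cKO tumours. Of the 155 Olig2 peaks in domain gaps, 55 (35.5%, 28.0 to 43.6) overlapped Olig2cKO H3K27ac, against 2809 of 11816 unacetylated Olig2 peaks outside domains (23.8%, 23.0 to 24.6). Of the 1447 Olig2 peaks on distal acetylation in domains, 1237 (85.5%, 83.6 to 87.3) overlapped Olig2cKO H3K27ac, against 83.4% (82.4 to 84.3) of those outside. Domain gaps lie near acetylated peaks, and distance to such a peak was not matched.

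H3K4me3 entered the rule through control tumours alone, so the domains' distal peaks carry none there. In Olig2cKO tumours, 575 of 4924 domain peaks (11.7%, 10.8 to 12.6) overlapped an H3K4me3 peak, and 474 domains (33.7%) had at least 1 such peak. Distal peaks outside domains did so in 12.3% of cases and all distal peaks in 12.2%. The reverse measure, control H3K4me3 on distal peaks of Olig2cKO domains, was 4.64% (4.18 to 5.14) of 7587. The Olig2cKO H3K4me3 list is the longer, at 47634 peaks against 43472. It was not cut to equal length, so these shares are not like for like. Domain peaks with Olig2 carried Olig2cKO H3K4me3 in 20.4% (18.3 to 22.6) of cases and those without it in 8.16% (7.27 to 9.11), values that distal peaks outside domains also showed (20.0% and 9.24%). Between the distal peaks control H3K4me3 was allowed, and 257 domains (18.3%) spanned such a peak. A promoter-type H3K27ac peak, which carries control H3K4me3 by definition, lay in 154 domains. Those 257 had Olig2 in 87.2% of cases and a median Olig2cKO cover of 25.2%, against 65.8% and 24.0% for the 1151 domains that spanned none. The 257 were also longer, at a median of 25.5 kb against 20.2 kb. Olig2 peaks on the spanned H3K4me3 peak itself count for them alone.

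The domains named below are the 5 at the end of each of 7 orderings, which name 26 domains in all. Positions are on mm9 and count from 1, and no gene is assigned, because no mm9 gene annotation was used. The longest domain, on chromosome 2 from 177919217 to 178008886, held 10 distal peaks in 89.7 kb. Olig2cKO H3K27ac covered 41.0% of it and control H3K27ac 34.2%, and all 10 peaks were shared. It had only 2 Olig2 peaks. The other domain of 10 peaks, on chromosome 6 from 31248780 to 31321912, had 5 Olig2 peaks, 33.0% Olig2cKO cover and 31.4% control cover, again with all 10 peaks shared.

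Other long domains had control-only peaks. On chromosome 8 from 127931419 to 128009374, 3 of 8 peaks were control-only, yet Olig2cKO cover was 15.7% and control cover 13.4%. On chromosome 1 from 74116983 to 74182881, 3 of 7 peaks were control-only, with 9.76% Olig2cKO and 14.4% control cover, and it spanned 3 Olig2 peaks, 2 of them on distal peaks, and 3 control H3K4me3 peaks. On chromosome 14 from 58458124 to 58522052, 2 of 8 peaks were control-only, with 26.9% Olig2cKO and 23.3% control cover. On chromosome 2 from 18811787 to 18879369, 2 of 7 peaks were control-only, and the domain had 0 Olig2 peaks, with 20.8% Olig2cKO and 16.8% control cover. A large number of peaks therefore did not fix how many were shared.

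The domain with most Olig2 peaks lay on chromosome 19 from 7188716 to 7232987. It held 5 distal peaks and 1 promoter-type peak, and 6 Olig2 peaks with scores of 50.17, 160.0, 69.7, 52.2, 62.3 and 457.7 in order of position. The 5 distal peaks had control scores of 553.0, 260.1, 536.7, 195.1 and 491.5, and each overlapped an Olig2cKO peak. Olig2cKO H3K27ac covered 52.4% of the domain and control H3K27ac 45.1%. A further Olig2cKO peak of 906 bp, from 7203152 to 7204057, overlapped no control H3K27ac peak.

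Of the 8 domains with 5 Olig2 peaks, 3 more are named by the ordering. On chromosome 1 from 36659634 to 36704932, each of the 5 distal peaks had 1 Olig2 peak and an Olig2cKO partner. Olig2cKO cover was 28.2% and control cover 32.0%. The last of these peaks was narrower in Olig2cKO tumours, at 2050 bp against 3577 bp in control tumours. On chromosome 12 from 74854611 to 74892627, 5 of 6 peaks had Olig2 and 1 was control-only, with 28.9% Olig2cKO and 33.2% control cover. On chromosome 1 from 183299379 to 183347843, 4 of 5 peaks had Olig2 and 2 were control-only, with 15.5% Olig2cKO and 23.9% control cover.

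Domains with most H3K27ac peaks and 0 Olig2 peaks were found on chromosomes 12, 2, 11 and 8. The domain on chromosome 12 from 101629823 to 101694535 held 9 peaks, of which 3 were control-only, and all 9 had scores between 56.4 and 133.8. Olig2cKO H3K27ac covered 33.0% of it and control H3K27ac 44.7%. The next domain at lower coordinates, from 101563456 to 101611926, held 6 peaks that were all shared, and 4 of them carried Olig2. Olig2cKO H3K27ac covered 58.5% of that domain, the highest cover among domains of 5 or more peaks, and control H3K27ac 36.5%. The Olig2cKO peaks there were 2830 to 7913 bp wide and the control peaks 1923 to 3775 bp. Scores ran between 53.5 and 133.4 in the Olig2cKO list and between 58.6 and 244.9 in the control list.

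Among the others without Olig2, on chromosome 8 from 47865816 to 47915242 all 6 peaks were shared, with 32.1% Olig2cKO and 18.7% control cover. On chromosome 11 from 32576423 to 32638643, 1 of 6 peaks was control-only, with 26.8% Olig2cKO and 26.3% control cover. On chromosome 2 from 147982791 to 148032792, 2 of 7 peaks were control-only, with 13.1% Olig2cKO and 12.2% control cover. In these 3 domains Olig2cKO cover was above control cover.

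Among domains of 5 or more peaks, the 5 with the highest Olig2cKO cover had all their peaks shared, which choosing them by that cover favours. On chromosome 12 from 4656680 to 4700141, the 5 control peaks had scores of 105.1, 1346, 720.4, 357.3 and 590.5, and Olig2 lay on 4 of them. Olig2cKO H3K27ac covered 54.7% of that domain and control H3K27ac 38.2%. On chromosome 9 from 123833045 to 123862187, with 0 Olig2 peaks, the values were 54.4% in Olig2cKO and 33.8% in control tumours. On chromosome 2 from 32742910 to 32774113, with 1 Olig2 peak, they were 49.4% and 41.3% in the same order. High cover was thus listed with 0, 1, 4 and 6 Olig2 peaks.

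The lowest cover among domains of 5 or more peaks was on chromosome 12 from 120264399 to 120293862. Its 5 control peaks were 781 to 1350 bp wide with scores between 83.2 and 126.3, and 4 were control-only. The 1 shared peak had a score of 297.6 in the Olig2cKO list, and it carried no Olig2, while the domain's only Olig2 peak lay on a control-only peak. Olig2cKO cover was 4.07% and control cover 19.1%. Next came chromosome 6 from 94190449 to 94224556, with 4.75% Olig2cKO and 15.8% control cover and 3 of 5 peaks control-only. On chromosome 2 from 91131354 to 91169395, with 0 Olig2 peaks, the values were 7.84% and 20.4% in that order, and 4 of 6 peaks were control-only. On chromosome 3 from 131250524 to 131281885, also with 0, they were 10.6% and 18.8%, and 3 of 5 peaks were control-only.

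Among domains with 3 or more Olig2 peaks, 2 had no Olig2cKO H3K27ac peak at all. The one on chromosome 7 from 29706412 to 29741436 held 4 wide control peaks of 5842, 3313, 6425 and 4767 bp with scores of 230.0, 115.4, 65.0 and 177.9, covering 58.1% of its length. Its 3 Olig2 peaks had scores of 59.0, 235.3 and 489.7. Although no acetylation was listed there in Olig2cKO tumours, an Olig2cKO H3K4me3 peak with a score of 70.2 lay over the first Olig2 peak. The one on chromosome 12 from 83469847 to 83499773 held 4 control peaks with scores of 100.1, 330.3, 51.0 and 132.6, and Olig2 lay on 3 of them. There too an Olig2cKO H3K4me3 peak (score 93.0) lay over the first Olig2 site.

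In 2 further domains with 3 Olig2 peaks cover was low but present. On chromosome 9 from 88171153 to 88192693 the control peaks had scores of 322.3, 324.1 and 1262, and the first 2 were control-only. The third was shared, at 1601 bp in Olig2cKO and 2791 bp in control tumours. An Olig2cKO peak of 723 bp lay in a gap over the middle Olig2 site, where control tumours had no H3K27ac peak. Olig2cKO cover was 10.8% and control cover 27.5%. On chromosome 13 from 29615011 to 29652464, all 3 Olig2 peaks lay on H3K27ac peaks, 2 of 5 peaks were control-only, and cover was 11.1% in Olig2cKO and 21.2% in control tumours.

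**Figure D5:**
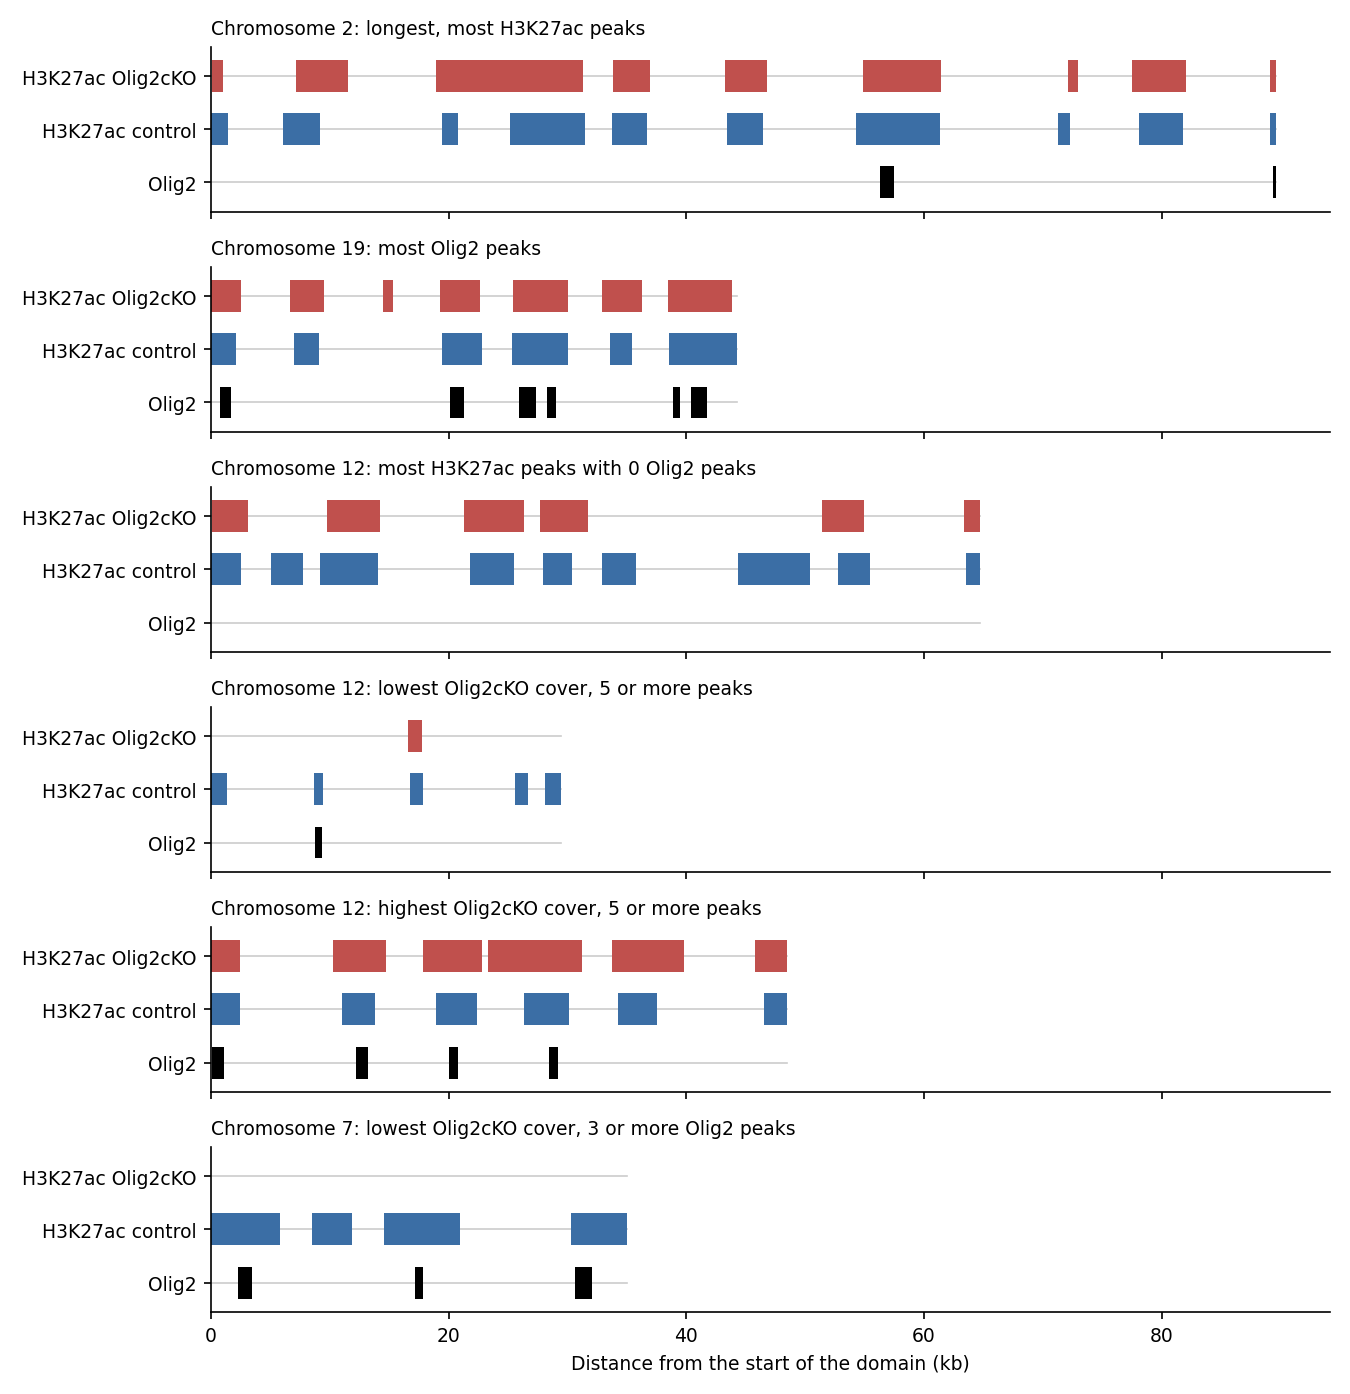
Peaks of Olig2cKO H3K27ac (red), control H3K27ac (blue) and Olig2 (black) along the first domain of each ordering, by distance from the start of the domain in kb, cut at the domain's edges. Olig2cKO peaks cover 41.0% of the longest domain (chromosome 2) and 0 of the domain on chromosome 7, which has 3 Olig2 peaks.

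The domains were spread over all 19 chromosomes, with 40 to 114 domains each. The share of distal peaks that lay in domains was 12.2% on chromosome 15 and 20.8% on chromosome 8. Chromosome 8 also had Olig2 in the largest share of its domains, 80.8%, and chromosome 13 in the smallest, 57.4%. The median Olig2cKO cover per chromosome lay between 22.3% on chromosome 16 and 28.0% on chromosome 19. Chromosomes are not replicates, and these values describe the spread within the libraries.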

How the data were processed

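Peak lists of 5 ChIP-seq libraries were analysed, 1 a group. CASAVA, Bowtie2 and MACS on mm9 are named, per the submitters' processing notes; the sources used here give no versions, settings or use of an input library. A deposited list holds a start, an end and a score per peak from the authors' peak caller, not scaled between libraries. Depth is unknown. Part of the shared genotype is not reported here.

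Overlap meant at least 1 bp. Domains, cover and counts came from numpy 2.4.6 and pandas 2.3.3 under Python 3.11.15, and intervals from scipy 1.17.1; 4 of 4 totals were identical in bedtools 2.31.1, and joining was tested on simulated data. Peaks in and outside domains were also compared within 5 score by 5 width classes. Cover is a share of the whole domain, gaps included. The domains named were, 5 each, the longest, those with most H3K27ac peaks, most Olig2 peaks, or most H3K27ac peaks with 0 Olig2 peaks, the lowest and highest Olig2cKO cover among domains of 5 or more peaks, and the lowest among those of 3 or more Olig2 peaks, with ties going to the longer domain. The members and these lists were chosen with earlier results of these data known. Figures used matplotlib 3.10.9. No positions were carried to another build, so genes and sequences were not used here.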

Additional observations from a re-analysis of the deposited data

How the results depend on the processing

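No paired analysis was possible because each group had 1 library. The number of domains, 1408, was 189 at a joining distance of 5 kb, 2271 at 20 kb, 4958 with 2 or more peaks, 459 with 4 or more and 83 with the upper 50% of control H3K27ac by score. Under these 5 settings in that order, the share with Olig2 was 62.4%, 76.0%, 54.1%, 81.3% and 90.4%, and the share without an Olig2cKO peak 3.70%, 1.01%, 6.11%, 1.09% and 0%. Median Olig2cKO cover was 38.3% at 5 kb, 20.6% at 20 kb, 26.6% with 2 or more peaks and 30.8% with the upper 50% of control peaks. The control-only share of domain peaks was 27.3% at 5 kb, 22.4% with 4 or more peaks, 26.2% with peaks distal in both genotypes, and 7.66% with the upper 50% of control peaks. The share with Olig2 was 41.4% with the upper 50% of Olig2, 65.0% with peaks distal in both genotypes and 65.8% without domains that span control H3K4me3. With the Olig2cKO list cut to control length, median cover was 21.4%, the control-only share 34.7% and the share without a peak 4.33%; with its upper 50% they were 12.2%, 61.7% and 20.95%.

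The cover difference between domains with and without Olig2 turned to -1.13 points at 5 kb, and to -1.14 points within peak-number classes. It was 4.43 points, and 4.75 within classes, with the upper 50% of Olig2cKO peaks, and 4.03 within classes with the upper 50% of control peaks. That last setting left 83 domains, 90.4% of them with Olig2, so its value rests on few domains without Olig2. The cause of these shifts was not tested. Classes of length, control cover and highest score were added after the data were seen. An overlap of 50% of the shorter peak gave 1429 domains and a cover difference of 1.97 points. Leaving out the 16369 Olig2 peaks that lay on all 4 histone lists gave 1408 domains and 1.72 points. Unknown depth limits every comparison of list content.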

Other observations

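Chromosome X lay outside the rule. Built the same way, it gave 11 domains, of which 9 had an Olig2 peak. Olig2cKO H3K27ac covered a median of 22.6% of these 11 (lowest 9.62%, highest 46.5%), and control H3K27ac covered 35.1%.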
